A study of Mus musculus with 8 samples.

Results

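The genes described here are 33 members of the response to amino acid shortage that is run by the transcription factor ATF4, together with cytosolic aminoacyl-tRNA synthetases, out of 21597 genes with a symbol on the array. They were chosen by name, and older symbols of the same gene counted (Ppp1r15a is listed as Myd116). By role they comprise 6 transcription factors and stress regulators, 6 enzymes of amino acid and one-carbon metabolism, 5 amino acid transporters and 16 cytosolic tRNA synthetases. The 33 genes are covered by 67 probes, and each gene is reported on its brightest probe (log2 signal averaged over the dyes and arrays). All 33 brightest probes passed the filter on low signal (red signal of at least 25 in at least 4 arrays), as did those of 18396 genes in all. The green signal of these 33 probes was well above background in all 8 arrays, and the red signal in at least 4 arrays for 31 of them. The exceptions were Slc7a11 (0 arrays) and Rars (1 array).

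Pancreas RNA from each of 8 female NOD mice, 12 weeks of age, was labeled with Cy5 (red) and hybridized to an array of its own, beside a Cy3-labeled (green) pool of RNA from 8 NOD.B10 mice of that age. NOD mice develop autoimmune diabetes spontaneously. NOD.B10 mice share most of the NOD background, carry a different MHC region and stay free of diabetes. No genetic change or treatment was added in either strain. Values are log2 ratios of NOD over the pool, so 0 means equal signal, and ± marks the SD over 8 mice unless another n is given. The pool is 1 mixture measured on every array, so the spread is that of the NOD mice and of the arrays, not of NOD.B10 mice. The dyes were never exchanged, so a dye effect at a probe and a difference between strains cannot be told apart.

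When uncharged tRNA accumulates or unfolded protein builds up in the endoplasmic reticulum, kinases phosphorylate the initiation factor eIF2, general translation slows, and the mRNA of ATF4 is translated more efficiently. ATF4 then binds, often with a C/EBP partner, to composite promoter elements of genes that import amino acids, make them, or load them on tRNA. Acinar cells of the pancreas make and secrete large amounts of protein, and this pathway is known to be active in them.

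The composite element was searched as TGATGNAA on both strands (TTNCATCA is its reverse complement; the 2 do not overlap in these promoters) in RefSeq promoters of assembly GRCm38.p6, each reaching from 250 bases before to 50 bases after a transcription start. A promoter was found for 26 of the 33 members. No entry matched the symbols searched for Slc7a5, Cars, Hars, Lars, Nars, Rars and Wars. Whether the promoter set lists them under other symbols was not checked. The element stood in the promoters of 8 of 26 members (30.8%), against 1219 of 27025 genes (4.51%), and 5 of the 8 were tRNA synthetases. The members were chosen as known or presumed ATF4 genes, so this share describes the choice. At least 1 match in each of the 8 is shown because ATF4 is known to act through this element. Each is printed 5′ to 3′ on the strand of the gene, 30 bases long, with the matched bases in capitals. Coordinates are those of the 30 bases, and the stated position is that of the first base in capitals.
Asns, chr6:7693214-7693243, minus strand, 23 bases before the start: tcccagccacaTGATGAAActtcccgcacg
Trib3, chr2:152344028-152344057, minus strand, position 15 after the start: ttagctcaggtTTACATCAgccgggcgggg
Slc7a11, chr3:50443661-50443690, minus strand, 66 bases before the start: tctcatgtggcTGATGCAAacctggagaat
Slc7a11, chr3:50443642-50443671, minus strand, 47 bases before the start: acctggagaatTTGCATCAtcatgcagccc
Aars, chr8:111033840-111033869, plus strand, position 10 after the start: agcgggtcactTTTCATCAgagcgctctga
Gars, chr6:55037960-55037989, plus strand, 30 bases before the start: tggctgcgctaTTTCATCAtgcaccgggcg
Iars, chr13:49682126-49682155, plus strand, position 8 after the start: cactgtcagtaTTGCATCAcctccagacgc
Tars, chr15:11399655-11399684, minus strand, 15 bases before the start: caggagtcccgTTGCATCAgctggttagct
Yars, chr4:129189895-129189924, plus strand, position 4 after the start: acgagctcagcTGATGCAAcccgacgggac

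Before the results, one property of the arrays bears on the members. The arrays came as 2 slides, with mice 1 to 4 on slide 1 and mice 5 to 8 on slide 2. Red signals were weak: over the members, the median background-subtracted red signal lay between 115 and 196 for the arrays of slide 1 and between 48.1 and 122 for those of slide 2, while that of the green pool was 717 to 817. The authors' software divided each signal by a trend surface fitted over the array, and on slide 2 the red surface ran from 0.210 to 2.83, against 0.466 to 1.39 on slide 1. At the members' own spots it ran from 0.218 to 2.26 on slide 2 and from 0.649 to 1.37 on slide 1. Values from slide 2 therefore depend more on that correction, and results are given by slide. Beside the deposited ratios stand 3 other scalings: background-subtracted signals centered by array with the surface left in, the same signals divided by the surface, and a model-based background correction (normexp) followed by loess, also with the surface left in. The software did not rate the spot grid as good for mice 5, 6 and 7.

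The question was whether the genes of this pathway differed in expression between the NOD pancreas and the NOD.B10 pool. No member was called at a change of 2-fold or more with an adjusted p under 0.01 (limma, one-sample moderated test, Benjamini-Hochberg adjustment over 28105 probes), a rule met by 1.69% of all genes tested and 0.786% of the 9542 bright genes (red well above background on 4 or more arrays). With the surface left in 2 members met it (6.61% of the bright genes), and at 1.5-fold with the deposited ratios 2 members did (4.25%). Of the 33 members, 18 had an unadjusted p under 0.05 (54.5%), as did 36.0% of all genes and 43.8% of the bright ones. At an adjusted p under 0.05 with no limit on size, 9 members were higher and 4 lower in NOD mice. The background for higher genes was 7.01% of all genes and 12.7% of the bright ones. For lower genes it was 14.4% and 14.8%. Of these 13 members, 10 kept their sign both with the trend surface left in and after normexp and loess, and 6 also passed under both. The exceptions in sign were Psat1, Mars and Qars. The 9 higher members stood above the background share and the 4 lower members near it, but only 4 were higher without mouse 1, 2, 3 or 4, 6 to 8 without another mouse and 5 with an unmoderated statistic. The members were not picked at random, and no test was made of the list. Their median log2 ratio was 0.16, against -0.06 over the bright genes. The plot of member values by array shows the spread behind these counts.

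**Figure D1:**
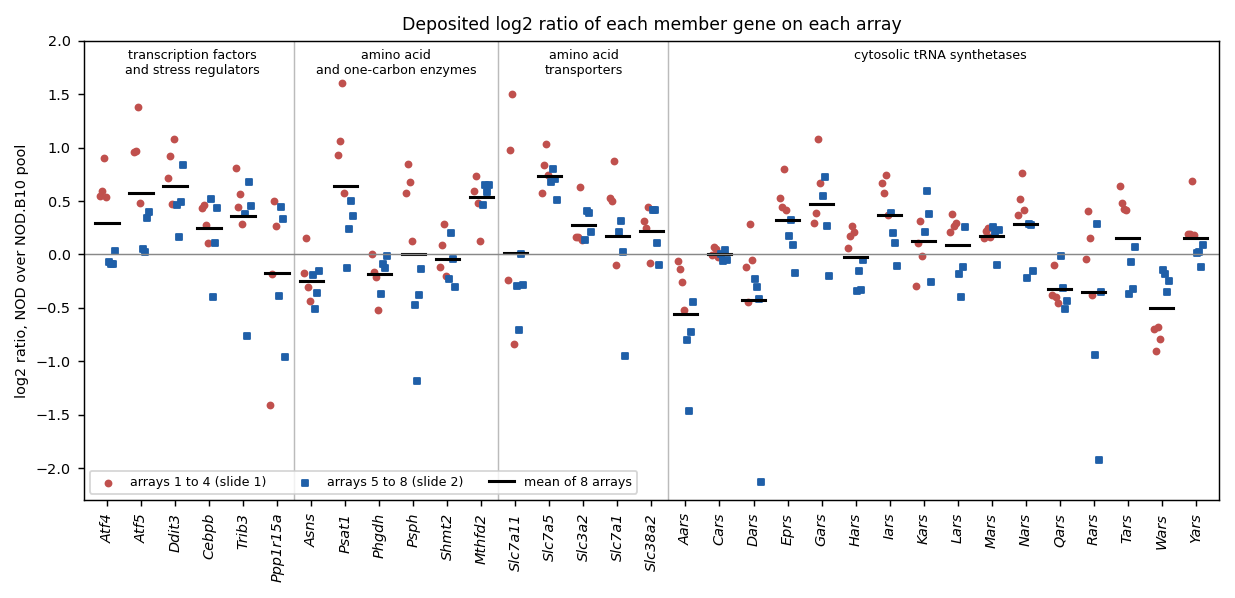
Deposited log2 ratio (y axis) of each of the 33 member genes (x axis, grouped by role) on each of 8 arrays. Red circles are mice 1 to 4 (slide 1), blue squares mice 5 to 8 (slide 2) and bars the mean of 8; Slc7a5, Mthfd2, Ddit3, Slc3a2 and Atf5 were above 0 in all 8 mice, and Wars, Qars and Aars below 0 in all 8.

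Among the transcription factors and stress regulators, Ddit3 and Atf5 rose, 4 genes did not pass the test, and none fell. For this role and the next ones the backgrounds given above apply, 12.7% of bright genes higher and 14.8% lower. Ddit3 encodes CHOP, a pro-apoptotic factor induced downstream of ATF4 (probe on mm8 chr10:126698411-126698714). It was at 0.71, 0.92, 0.47 and 1.08 on slide 1 and at 0.46, 0.16, 0.49 and 0.84 on slide 2. All 8 mice lay above the pool and the slides overlapped. The mean was 0.64 ± 0.30 (adjusted p = 0.00592, limma; exact sign-flip p = 0.00781, two-sided, the smallest that 8 mice allow). With the trend surface left in the mean was 0.99, and after normexp and loess 0.23. Its background-subtracted red signal was only 7.36 to 29.6. The probe lies 1118 bases from that of the neighbouring synthetase gene Mars.

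Atf5, a factor related to ATF4 and controlled by translation in the same way, was at 0.96, 0.97, 1.38 and 0.48 on slide 1 and at 0.05, 0.02, 0.34 and 0.40 on slide 2. Every mouse of slide 1 lay above every mouse of slide 2. The mean was 0.57 ± 0.48 (adjusted p = 0.0453, limma). It was larger with the trend surface left in (1.03, adjusted p = 0.000619) and after normexp and loess (1.34, adjusted p = 0.0128), and the slide means then lay close together, at 1.02 and 1.03 and at 1.28 and 1.41. Of the 8 leave-one-out fits 6 lost the call (without mouse 1, 2, 3, 4, 7 or 8), with adjusted p up to 0.101.

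Atf4 itself (chr15:80083904-80083963) was at 0.54, 0.60, 0.90 and 0.54 on slide 1 and at -0.08, -0.09, -0.09 and 0.03 on slide 2. The mice of slide 1 were therefore high, those of slide 2 were at the level of the pool, and the groups did not overlap. The mean over all 8 was 0.29 ± 0.39 (adjusted p = 0.167, limma), and its sign depended on the scaling (-0.20 with the trend surface left in and -0.13 after normexp and loess). The mRNA level does not show how much ATF4 protein was made, since the factor is controlled at translation.

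Trib3, a pseudokinase that ATF4 and CHOP induce, was at 0.80, 0.45, 0.57 and 0.29 on slide 1 and at 0.38, -0.77, 0.68 and 0.45 on slide 2 (mean 0.36 ± 0.48, adjusted p = 0.170, limma; -0.16 with the trend surface left in). Mouse 6 alone lay below the pool, and without it the mean was 0.52 with an adjusted p of 0.00573 (limma). A second bright probe of Trib3 gave 0.03 ± 0.29 over all 8 mice (adjusted p = 0.869, limma). Cebpb, a partner of ATF4, had a mean of 0.24 ± 0.30 (adjusted p = 0.141, limma), again with mouse 6 alone below 0. Ppp1r15a, the phosphatase subunit that reverses eIF2 phosphorylation, varied from -1.41 to 0.50 with a mean of -0.17 ± 0.71.

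Of the 6 enzymes, Mthfd2 and Psat1 rose, Asns fell, and Phgdh, Psph and Shmt2 did not pass the test. Mthfd2, a mitochondrial enzyme of the folate cycle (chr6:83272182-83272241), was at 0.60, 0.73, 0.49 and 0.12 on slide 1 and at 0.46, 0.65, 0.58 and 0.65 on slide 2. All 8 mice were high and the slide means as deposited were 0.48 ± 0.26 and 0.59 ± 0.09 (SD, n = 4). They were 0.52 and 1.29 with the trend surface left in, and 0.18 and 0.77 after normexp and loess. The mean of 0.53 ± 0.19 gave an adjusted p of 0.00237 (limma).

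Psat1, the transaminase of serine synthesis, was at 0.94, 1.06, 1.60 and 0.58 on slide 1 and at -0.13, 0.24, 0.50 and 0.36 on slide 2. All mice of slide 1 exceeded all of slide 2. The mean was 0.64 ± 0.54 (adjusted p = 0.0444, limma), which became -0.04 with the trend surface left in and -0.02 after normexp and loess. Of the 8 leave-one-out fits, the 7 that kept mouse 5 lost the call (adjusted p up to 0.0998). Phgdh and Psph, the first and last enzymes of the same route, did not pass the test. Phgdh had a mean of -0.19 ± 0.18 (adjusted p = 0.0739, limma). Psph was at 0.55 ± 0.31 on slide 1 and at -0.54 ± 0.45 on slide 2 (SD, n = 4), which left a mean of 0.01.

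Asns, asparagine synthetase and a classical ATF4 target (chr6:7625194-7625253), was the brightest member and lay slightly below the pool. It was at -0.18, 0.15, -0.31 and -0.44 on slide 1 and at -0.19, -0.51, -0.36 and -0.15 on slide 2. Mouse 2 was the single mouse above the pool, and the slides overlapped. The mean was -0.25 ± 0.21 (adjusted p = 0.0458, limma; exact sign-flip p = 0.0156). Leaving out any mouse except mouse 2 ended the call (adjusted p up to 0.102, limma). With the signals centered by array and divided by the trend surface the mean was -0.04 (adjusted p = 0.798, limma). It was -0.76 with the surface left in (adjusted p = 0.0419, limma) and -0.32 after normexp and loess (adjusted p = 0.535, limma). Over 11 alternatives the adjusted p ranged from 0.0419 to 0.798. Shmt2, which feeds serine carbon into mitochondrial folate, was at -0.04 ± 0.21.

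Both subunits of the large neutral amino acid transporter rose, and the other 3 transporters did not pass the test. Slc7a5, the LAT1 transport subunit (chr8:124767332-124767391), had the highest mean and the lowest adjusted p of the 33 members. It was at 0.57, 0.84, 1.03 and 0.74 on slide 1 and at 0.67, 0.80, 0.71 and 0.51 on slide 2. All 8 mice were high, the slides overlapped, and the median mouse was at 165% of the pool. The mean was 0.73 ± 0.16 (adjusted p = 0.00048, limma; exact sign-flip p = 0.00781).

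Slc3a2, the heavy chain that carries LAT1 to the membrane, was at 0.16, 0.16, 0.63 and 0.14 on slide 1 and at 0.14, 0.40, 0.39 and 0.21 on slide 2. It was above the pool in all 8 mice, with a mean of 0.28 ± 0.18 (adjusted p = 0.0198, limma). With the trend surface left in the mean was 0.36 and the call was lost (adjusted p = 0.111, limma). A dimmer second probe of Slc3a2 had a mean of -0.52 ± 1.08. Slc38a2, the SNAT2 carrier of small neutral amino acids, had a mean of 0.22 ± 0.22 (adjusted p = 0.0828, limma). Slc7a1, the cationic amino acid carrier, ranged from -0.95 to 0.87 around a mean of 0.17 ± 0.55. Slc7a11, the cystine/glutamate exchanger, had no red signal well above background on any array, and its ratios ranged from -0.84 to 1.498.

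The 16 cytosolic tRNA synthetases did not move in 1 direction: Gars, Iars and Mars rose, Aars, Wars and Qars fell, and 10 did not pass the test. These counts, 3 and 3 of 16, were near the backgrounds of 12.7% and 14.8% of bright genes. Their median was 0.11. Wars (chr12:109308045-109308104), which loads tryptophan and is known to be induced by interferon-gamma, was below the pool on both slides. It was at -0.70, -0.90, -0.68 and -0.80 on slide 1 and at -0.15, -0.18, -0.35 and -0.25 on slide 2. All 8 mice were low and slide 1 was lower than slide 2 without overlap. The mean was -0.50 ± 0.30 (adjusted p = 0.0149, limma), and a second probe gave -0.69 ± 0.46 (adjusted p = 0.0208, limma).

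Qars, the glutamine enzyme, was at -0.38, -0.09, -0.40 and -0.46 on slide 1 and at -0.02, -0.31, -0.51 and -0.43 on slide 2, below the pool in all 8 mice. Its mean was -0.33 ± 0.18 (adjusted p = 0.0110, limma), against 0.0014 with the trend surface left in and 0.01 after normexp and loess. The slide means were -0.33 and -0.32 as deposited. They were -0.29 and 0.29 with the surface left in, and -0.29 and 0.32 after normexp and loess. Aars, the alanine enzyme, was at -0.06, -0.14, -0.26 and -0.52 on slide 1 and at -0.80, -1.47, -0.73 and -0.44 on slide 2. All mice lay below the pool, and 3 of the 4 on slide 2 lay below every mouse of slide 1. The mean was -0.55 ± 0.45 (adjusted p = 0.0418, limma), and the 6 leave-one-out fits that kept both mouse 1 and mouse 6 lost the call (adjusted p up to 0.0902).

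Gars, the glycine enzyme, was at 0.30, 0.39, 1.08 and 0.67 on slide 1 and at 0.55, 0.72, 0.27 and -0.20 on slide 2. The mean was 0.47 ± 0.38 (adjusted p = 0.0390, limma), with mouse 8 alone below the pool. Iars, the isoleucine enzyme, was at 0.67, 0.57, 0.75 and 0.37 on slide 1 and at 0.39, 0.20, 0.11 and -0.11 on slide 2. Here too only mouse 8 was below the pool, and the mean was 0.37 ± 0.29 (adjusted p = 0.0389, limma). Mars, the methionine enzyme, was at 0.15, 0.22, 0.25 and 0.16 on slide 1 and at 0.26, 0.19, -0.10 and 0.23 on slide 2, with mouse 7 alone below the pool. Its mean of 0.17 ± 0.11 passed the test (adjusted p = 0.0278, limma) although it was small. The mean was -0.13 both with the trend surface left in and after normexp and loess. With the surface divided out it was 0.09 and did not pass (adjusted p = 0.426, limma). A dimmer probe of the gene gave -0.42 ± 0.48. Of the 8 leave-one-out fits, Gars passed only without mouse 8, Iars only without mouse 7 or 8 and Mars only without mouse 7 (adjusted p up to 0.0902, 0.0889 and 0.0668 in the others).

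Tars, the threonine enzyme, was at 0.64, 0.48, 0.43 and 0.41 on slide 1 and at -0.37, -0.07, -0.32 and 0.07 on slide 2. The slides did not overlap, and the mean of 0.16 ± 0.38 did not pass the test (adjusted p = 0.446, limma). Of the remaining synthetases, the highest means were those of Eprs (0.32 ± 0.30), the fused glutamate and proline enzyme, and Nars (0.28 ± 0.33), the asparagine enzyme. The other bright probes of Eprs were lower, at 0.09, 0.03 and 0.14, and did not pass the test. Cars, the cysteine enzyme, was the least variable member, from -0.06 to 0.07 around a mean of 0.00 ± 0.05. A second bright probe of Cars nevertheless gave 0.46 ± 0.12 (adjusted p = 0.000969, limma). Yars (0.16), Kars (0.13), Lars (0.09) and Hars (-0.02), for tyrosine, lysine, leucine and histidine, had means between -0.02 and 0.16. Dars and Rars, for aspartate and arginine, had the widest spread, with means of -0.43 ± 0.73 and -0.35 ± 0.77 and single mice at -2.13 and -1.92.

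The 8 members with the composite element shown above had means from -0.55 (Aars) to 0.47 (Gars). Of these, Gars and Iars rose, Aars and Asns fell, and Trib3, Slc7a11, Tars and Yars did not pass the test. Among bright genes 12.7% were higher and 14.8% lower, and 8 genes are too few to set against these shares.

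The slides differed for many members. The mean was lower on slide 2 than on slide 1 for 26 of 33 members (78.8%), against 52.3% of the bright genes. With the surface divided out these shares were 81.8% and 51.4%, with it left in 57.6% and 59.6%, and after normexp and loess 54.5% and 51.3%, so the excess among members was large where the surface was divided out, as it is in the deposited ratios, and small or absent where it was left in. As deposited, the members' median was 0.31 on slide 1 and -0.02 on slide 2. By array, the members' median was 0.21, 0.39, 0.47 and 0.14 on slide 1 and -0.02, 0.02, 0.02 and -0.10 on slide 2. The median of the bright genes stayed between -0.06 and -0.01 on every array. Each slide's 4 values lay apart from the other's for 10 members (30.3%), against 21.6% of the bright genes. A test of the slide difference itself passed an adjusted p of 0.05 for 3 members, Atf4, Tars and Wars, where the background was 3.87% of all genes and 6.2% of the bright ones. The unadjusted p was under 0.05 for 13 members (39.4%), against 21.0% of all genes and 30.5% of the bright ones.

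Atf4 was at 0.64 ± 0.17 on slide 1 and at -0.06 ± 0.06 on slide 2 (SD, n = 4), a difference of -0.70 with an SE of 0.09 (adjusted p = 0.0185, limma). Tars was at 0.49 ± 0.10 and at -0.17 ± 0.21, a difference of -0.66 with an SE of 0.11 (adjusted p = 0.0347, limma). Wars moved the other way, from -0.77 ± 0.10 to -0.23 ± 0.09, a difference of 0.54 with an SE of 0.07 (adjusted p = 0.0185, limma). The mice of the 2 slides carry the same labels, so a difference between mice and one between slides cannot be told apart.

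**Figure D2:**
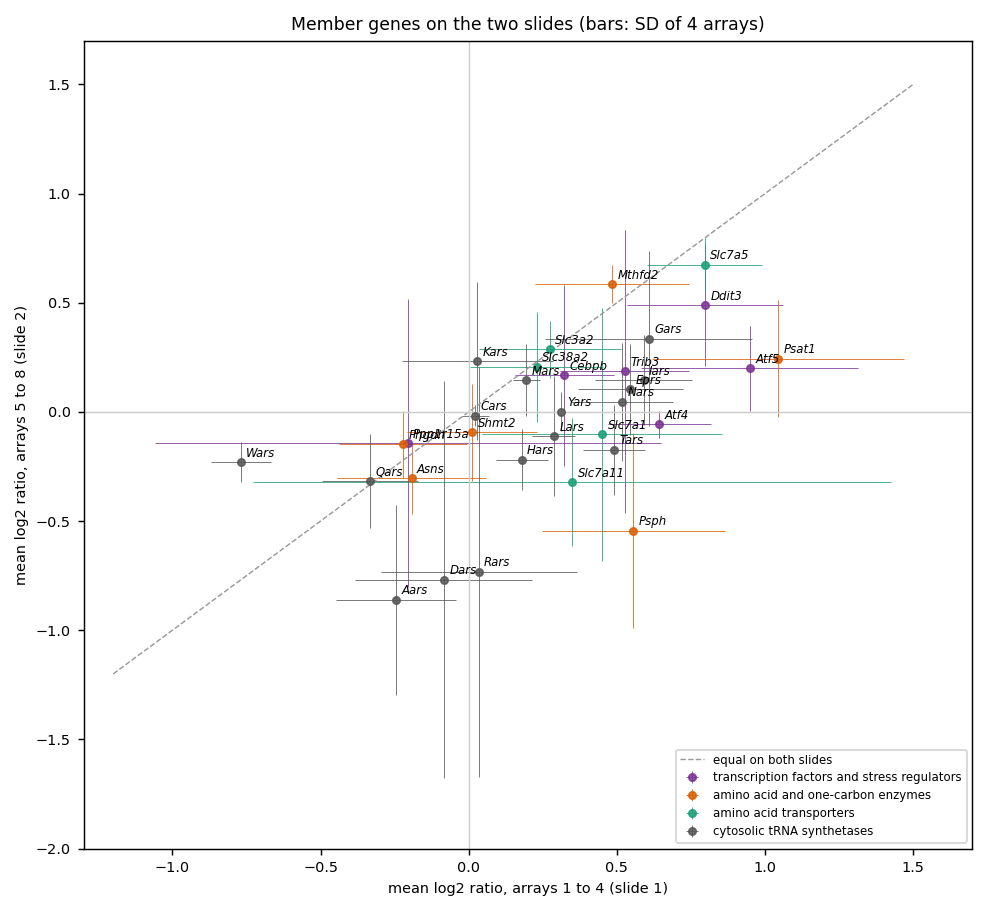
Mean log2 ratio of each member on slide 1 (x axis) and slide 2 (y axis), with SD bars over 4 arrays and colors for the 4 roles. Most points lie below the dashed line of equal values; Slc7a5, Mthfd2 and Qars lie close to it, and Atf4 is at 0.64 on slide 1 and -0.06 on slide 2.

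Within slide 1, 10 members were higher at an adjusted p under 0.05 (30.3%; bright genes 11.9%). They were Atf4, Atf5, Ddit3, Psat1, Mthfd2, Slc7a5, Eprs, Iars, Nars and Tars. Wars alone was lower, where the background was 14.1%. Within slide 2, Slc7a5 and Mthfd2 were higher and Aars and Wars lower, with backgrounds of 10.6% and 12.6%. Slc7a5, Mthfd2 and Wars thus passed in each slide taken alone as deposited, but not under every scaling. With the surface divided out, slide 1 had 11 higher members and 1 lower (bright genes 9.49% and 14.5%), and slide 2 had 4 and 3 (9.45% and 17.2%). With it left in, slide 1 had 4 and 1 (3.06% and 4.02%), and slide 2 had 7 and 12 (15.6% and 35.5%). After normexp and loess, slide 1 had 0 in either direction (0.0838% and 0.021%), and slide 2 had 9 and 9 (18.8% and 27.2%). The 12 and the 9 lower members on slide 2, 36.4% and 27.3% of the members, were near these backgrounds. On slide 1 after normexp and loess, Slc7a5 was at 0.61 (adjusted p = 0.119, limma; 0.80 as deposited), Mthfd2 at 0.18 (adjusted p = 0.505; 0.48 as deposited) and Wars at -0.71 (adjusted p = 0.0506; -0.77 as deposited). With the surface left in, Mthfd2 on slide 1 was at 0.52 (adjusted p = 0.138, limma) and Wars on slide 2 at -0.51 (adjusted p = 0.0650), against -0.23 as deposited. With the surface divided out, Wars on slide 2 was at -0.30 (adjusted p = 0.0566, limma). Of these lost calls, only that of Mthfd2 after normexp and loess came with a value smaller than the deposited one by over 1.5 times.

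How the trend surface was handled changed many slide 2 values and few slide 1 values. When background-subtracted signals were centered by array with the surface left in, the median shift of a member was 0.06 on slide 1. On slide 2 it was 0.64. The bright genes shifted about as much, by 0.05 and 0.59. When the same signals were divided by the deposited surface, the members' shifts were 0.06 and 0.09, so the surface accounts for most of the change on slide 2. After normexp and loess the members' shifts were 0.22 and 0.44. Psat1 on slide 2 was at 0.24 as deposited, at 0.15 with the surface divided out and at -0.96 with it left in. Atf4 on slide 2 was at -0.06, -0.15 and -0.91 in the same order, and Asns at -0.30, -0.05 and -1.39. The red surface at these 3 spots was 0.276 to 0.604, 0.464 to 0.751 and 0.218 to 0.554 on slide 2. The difference of Atf4 between slides was -0.73 with the surface divided out (adjusted p = 0.0166, limma), -1.42 with it left in (adjusted p = 0.0443) and -0.80 after normexp and loess (adjusted p = 0.0739). That of Tars was -0.71, -0.88 and -0.84 in the same order (adjusted p = 0.0293, 0.115 and 0.0467, limma). That of Wars was 0.51, 0.24 and 0.30 (adjusted p = 0.0527, 0.637 and 0.235, limma).

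**Figure D3:**
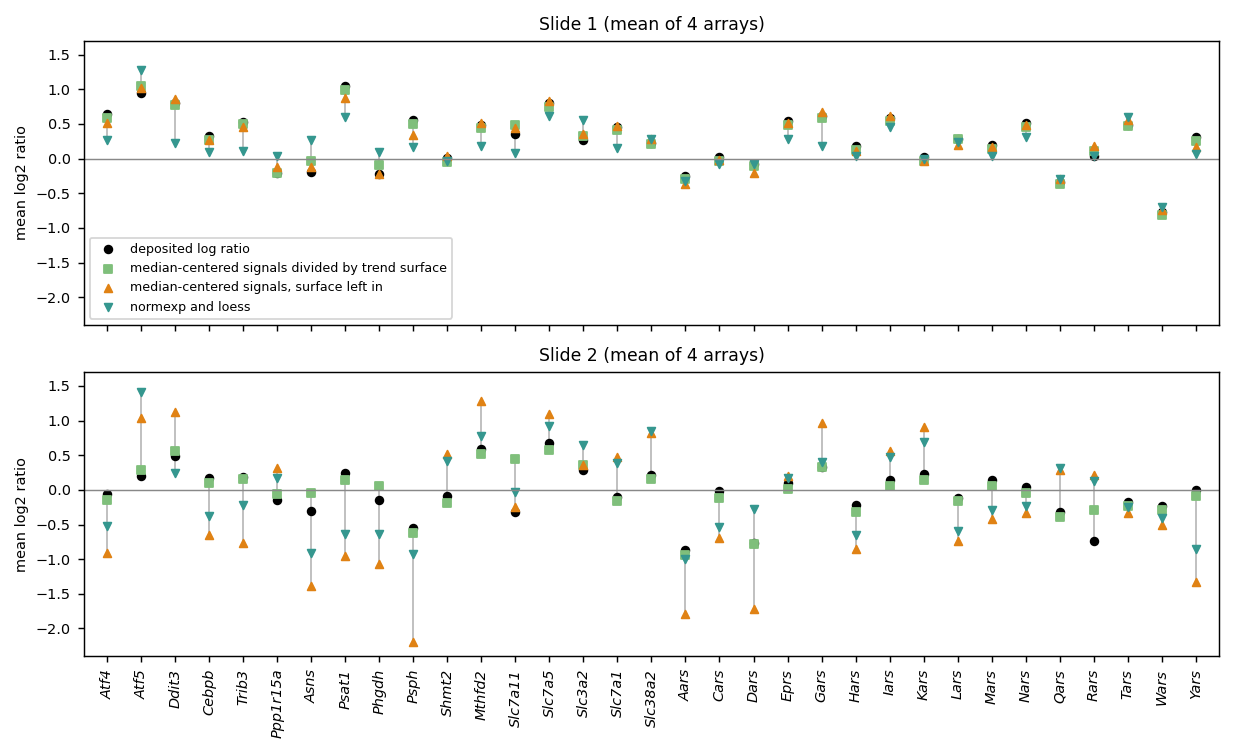
Mean log2 ratio of each member (x axis) over the 4 arrays of slide 1 (upper panel) and slide 2 (lower panel) under 4 scalings of the signals. For most genes the values lie closer together on slide 1 than on slide 2, where they spread for Psph from -0.54 as deposited to -2.19 with the trend surface left in.

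The members whose change passed in the pooled fit and under each of 11 alternative settings, with 1 direction, were Slc7a5, Mthfd2, Ddit3 and Wars. They also passed with each mouse left out in turn. The size was less stable for Ddit3, from 0.23 after normexp and loess to 0.99 with the surface left in.

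Probes of the same gene did not always agree. For 16 members 2 or more probes were bright by this measure. The probes of 9 of these pointed in 1 direction and those of 7 in both, with a median gap of 0.42 between the highest and lowest mean. Phgdh had 3 such probes, at -0.19, -0.53 and 0.05, of which the second passed the test, lower in all 8 mice (adjusted p = 0.00253, limma). Psph had 2, at 0.01 and 0.59, of which the second passed (adjusted p = 0.0365, limma). A second probe of Lars was higher in all 8 mice, at 0.24 (adjusted p = 0.00631, limma). The second probe of Iars was at -0.06 and that of Tars at -0.60. Both probes of Wars, of Aars and of Qars were below 0. Ddit3, Atf4, Atf5, Asns, Psat1, Mthfd2, Slc7a5 and Gars had 1 probe each.

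**Figure D4:**
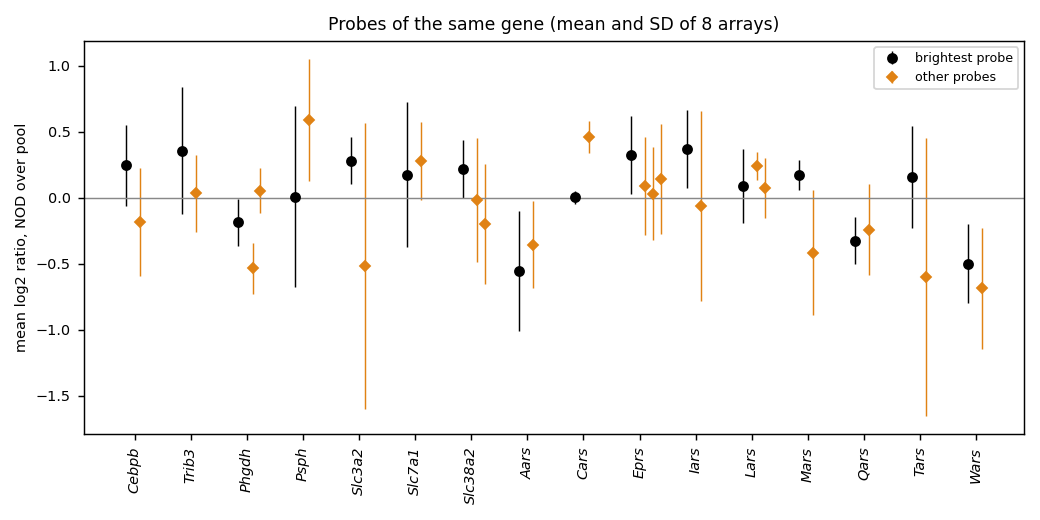
Mean log2 ratio with SD over 8 arrays for the brightest probe (black) and the other bright probes (orange) of 16 member genes. Aars, Qars and Wars have every probe below 0, while Slc3a2, Tars, Mars, Iars, Phgdh, Slc38a2 and Cebpb have probes on both sides of 0.

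Neighbouring lists were read in the same fit, where the backgrounds above apply. Of 24 other ATF4 pathway genes, 6 rose, 2 fell and 16 did not pass the test, with a median of 0.03. Fgf21, a stress hormone that acinar cells make, had a mean of 1.05 ± 0.67 (adjusted p = 0.0170, limma), and was at 1.49 ± 0.39 on slide 1 and 0.61 ± 0.61 on slide 2. The carriers Slc1a4 (0.54 ± 0.27) and Slc7a3 (0.48 ± 0.35) rose as well, and Nupr1, a stress-induced cofactor of transcription, fell to -0.52 ± 0.29. Of 14 eIF2 kinases and genes of the eIF2 cycle, Eif2s2, the beta subunit of eIF2, rose (0.47 ± 0.14, adjusted p = 0.00148, limma), none fell and 13 did not pass.

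Of 13 mitochondrial tRNA synthetases measured, 1 rose, 4 fell and 8 did not pass. Their median was -0.32, against 0.11 for the 16 cytosolic members. Only 7 of the 13 were bright (red well above background on 4 or more arrays), against 15 of the 16, so the medians compare probes of unlike signal. The lowest were Hars2 (-1.28 ± 0.51), Vars2 (-1.08 ± 0.73), Pars2 (-0.73 ± 0.52) and Lars2 (-0.53 ± 0.17). Red signal of the first 3 was well above background in at most 1 array. The mean signal of the Lars2 probe was 352606 in red and 506644 in green. That of the acinar enzyme gene Amy2 was 216643 and 212215. Whether the Lars2 probe reads only this mRNA was not tested. Of 7 other cytosolic synthetase and scaffold genes none rose, Farsb (-0.97 ± 0.82) and Vars (-0.45 ± 0.32) fell, and 5 did not pass. Of 10 other genes of the unfolded protein response, Herpud1, of ER-associated degradation, rose (0.94 ± 0.48, adjusted p = 0.00811, limma), the sensor kinase Ern1 fell (-0.47 ± 0.37), and 8 did not pass.

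Of the 68 genes in the neighbouring lists, 8 differed between slides at an adjusted p under 0.05, where the background was the 3.87% and 6.2% given above. Named after their values were seen, 7 were lower on slide 2 (Eif2s1, Ddit4, Gdf15, Eef1e1, Farsb, Hspa5 and Hsp90b1) and Pck2, a mitochondrial enzyme of gluconeogenesis, was higher (-0.28 and 0.20, adjusted p = 0.0262, limma). Of the 8, the largest differences were those of Hspa5 and Hsp90b1, the main chaperones of the endoplasmic reticulum. Hspa5 was at 1.46, 1.62, 1.07 and 0.94 on slide 1 and at -0.94, -0.63, -0.19 and -0.77 on slide 2 (adjusted p of the difference = 0.0132, limma). Hsp90b1 was at 1.84 ± 0.40 and at -0.40 ± 0.20 (SD, n = 4; adjusted p = 0.0102, limma). Every mouse of slide 1 was above the pool for both genes and every mouse of slide 2 below it. These values are as deposited. The part of the trend surface in them was not tested.

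**Figure D5:**
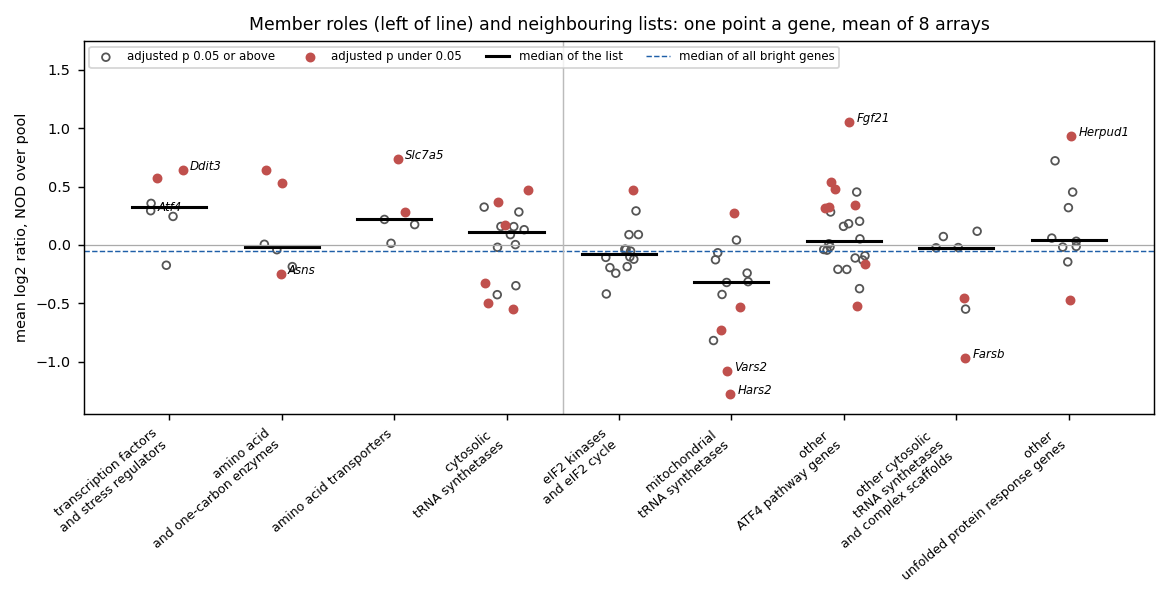
Mean log2 ratio over 8 arrays (y axis) of each gene in the 4 member roles (left of the vertical line) and 5 neighbouring lists. Filled red points passed an adjusted p of 0.05. Black bars are list medians and the dashed line is the median of bright genes at -0.06. The mitochondrial synthetases have the lowest median, -0.32, with only 7 of these 13 genes bright.

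In bulk tissue, more cells of a type and more RNA per cell cannot be told apart. Acinar markers were the brightest list, with summed red signals of 2160290 to 3759220 against 2177540 to 2598000 in the pool. Of 10 acinar markers 2 rose, led by Ctrb1 (0.54), and none fell. The acinar gene Cela2a was the single marker that differed between slides at an adjusted p under 0.05, from -0.47 ± 0.05 on slide 1 to 0.64 ± 0.18 on slide 2 (SD, n = 4; adjusted p = 0.00849, limma). T-cell markers were higher for 7 of 8 genes, of which 4 passed the test (Lck 2.30), with summed red signals of 4685 to 16916 against 2935 to 8507 in the pool. B-cell and plasma cell markers were higher for 4 of 6 genes, and 1 passed (Igj 1.57). Of the myeloid markers 6 of 7 were higher and 2 passed (Itgax 1.56). Islet markers were lower for 8 of 9 genes, of which Chga (-0.64) and Pcsk2 (-0.48) passed. The lowest mean was that of Ppy (-1.02, adjusted p = 0.0969, limma). Ins1 was at -1.33 on slide 1 and 0.12 on slide 2, and Ins2 at -1.13 and 0.37, differences that did not pass the test (adjusted p = 0.179 and 0.138, limma). In the duct list 1 of 5 genes fell (Cftr -0.66), and in the liver list 2 of 4 fell (Fgb -3.05). In the adipocyte list Lep alone fell (-0.19), and the lowest mean, -1.04 for Plin1, did not pass. Red signal was well above background on 0 arrays for Cftr, Fgb and Lep and on 1 array for Itgax, which limits these values. Every marker was above background on at least 1 array in at least 1 dye. Cela2a, Chga, Pcsk2, Ins1, Ins2 and Lep were named after their values were seen. The part of cell composition in the members' values was not tested.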

How the data were processed

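RNA from whole pancreas was measured on 8 two-color Agilent mouse arrays, 1 per NOD mouse, which are separate animals. Per the file headers, the authors extracted signals with Feature Extraction 10.7.3.1, and probe positions are those of mm8. The deposited log10 ratio (red over green, multiplied here by 3.32 to give log2) and the deposited processed intensity of each dye had been background-subtracted, divided by a fitted trend surface (deposited as a score for each spot) and adjusted between dyes by linear and lowess steps. Deposited flags marked spots well above background, irregular or saturated. The precision of arrays is limited by their number.

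Probes that carried a symbol and whose processed red signal reached 25 on 4 or more arrays (28105) entered limma 3.58.1 (R 4.3.3). Each mean log2 ratio was tested against 0, and slide 2 against slide 1 in a fit of slide means, with Benjamini-Hochberg adjustment over all probes. The scripts were checked on simulated data. Single genes had an exact two-sided sign-flip test (256 patterns). All members were reported, with values per array for those that passed an adjusted p of 0.05 in the pooled or slide fit and for Atf4, Ddit3, Asns and Trib3. From neighbouring lists, up to 4 genes with the largest passing means were named, and from marker lists the gene with the largest mean. Members and lists were chosen with earlier results of these data known.

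Alternatives planned were an unmoderated statistic, other signal filters, irregular spots left out, background-subtracted signals centered on the array median (trend surface left in), normexp correction (offset 50) with loess, ratios of processed signals, array weights, slide as a term, other thresholds, the next brightest probe, and each mouse left out. Added after the data were seen were centering on bright genes and division of the centered signals by the trend surface. Promoters came from RefSeq, assembly GRCm38.p6. Its positions were not mixed with those of mm8. A further promoter match from the same search is not reported here.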

Additional observations from a re-analysis of the deposited data

Results flagged for a closer look

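For 6 members 1 mouse lay far from the other 7, by a gap larger than Dixon's limit for 8 values. Chance alone marks about 1 in 20 groups, and 33 were examined. Mouse 6 was lowest for Cebpb (-0.40) and for Trib3 (-0.77). Mouse 4 was lowest for Mthfd2 (0.12), mouse 8 for Dars (-2.13) and mouse 7 for Mars (-0.10). Mouse 3 was highest for Yars (0.69). The red signal of Dars in mouse 8 was 1.46 after background subtraction, against 5.69 to 36.1 in the other mice.

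The slides differed by a test of the difference itself for Atf4 (-0.70, slide 2 minus slide 1), Tars (-0.66) and Wars (0.54). At the spot of Atf4 the red trend surface was 0.651 to 1.17 on slide 1 and 0.464 to 0.751 on slide 2, and its background-subtracted red signal was 80.8 to 181 and 22.3 to 51.3, while green was 433 to 646 over all arrays. The part of the surface in the deposited slide difference was not tested.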

How the results depend on the processing

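No paired analysis was possible because the replicate numbers name single NOD mice that were all compared with the same pool, so no second group shares them. The count of higher members was 5 with an unmoderated statistic and 4 to 8 with each mouse left out, against 9. The count of lower members was 2 with an unmoderated statistic, with no signal filter and with array weights, 1 after normexp and loess, and 2 to 3 with each mouse left out, against 4. Members that differed by slide numbered 5 with the filter on red signal and 5 with centered signals, and 1 to 5 with each mouse left out, against 3. At 2-fold, 2 members (Atf5 and Aars) were called with centered signals (6.61% of bright genes), and 2 (Slc7a5 and Ddit3) passed 1.5-fold (4.25%).

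Signs turned with centered signals, trend surface left in, for Psat1 (-0.041), Psph (-0.92), Shmt2 (0.28), Cars (-0.35), Lars (-0.27), Mars (-0.13), Qars (0.0014), Rars (0.20), Yars (-0.58), Atf4 (-0.20), Cebpb (-0.19), Ppp1r15a (0.10) and Trib3 (-0.16). The same 13 turned after normexp and loess, to -0.022, -0.38, 0.19, -0.31, -0.18, -0.13, 0.014, 0.081, -0.39, -0.13, -0.14, 0.10 and -0.052 in that order. With the surface divided out 2 turned, Psph (-0.065) and Cars (-0.074), so by construction the surface accounts for the other 11 turns with centered signals. Hars turned with array weights (0.026) and with centering on bright genes (0.0079). The next brightest probe turned Slc38a2 (-0.017), Slc3a2 (-0.52), Hars (0.084), Iars (-0.061), Mars (-0.42), Tars (-0.60) and Cebpb (-0.19). Leaving out a mouse gave ranges across 0 for Psph (-0.11 to 0.18), Ppp1r15a (-0.27 to 0.0030), Slc7a11 (-0.20 to 0.14), Cars (-0.0068 to 0.012) and Hars (-0.061 to 0.025). Other causes were not tested.

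The median over all tested probes was -0.09 as deposited, 0.09 with centered signals, 0.10 with the surface divided out and -0.01 after normexp and loess, and that of the members 0.16, 0.08, 0.12 and 0.03. Low red signal limits the precision for Slc7a11, Rars, Dars, Ddit3 and Ppp1r15a.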
